A study of Schizosaccharomyces pombe with 3 samples.

Results

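On the chromosome arms of fission yeast, smoothed signal of the cohesin subunit Psc3 was at least 2-fold above the array median at 159 sites. This held on every one of 3 tiling arrays, though ratios of single tiles in a site could lie lower. The sites were chosen by their measured values. Each array tile on chromosomes I, II and III that lay over 100 kb from a chromosome end and outside the centromere intervals and an interval at 2.10 to 2.16 Mb of chromosome II was given a smoothed ratio. That ratio is the mean over 3 neighbouring tiles of log2 ChIP signal over input signal, minus the array median. Tiles at 1 or above in all 3 arrays were members, and members within 1 kb of each other were joined into a site. Of 37107 arm tiles, 930 were members, and the 159 sites they form are among 541 arm sites that passed the same threshold in at least 1 array.

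Cohesin is a ring of proteins that keeps sister chromatids paired and folds chromosomes into loops. In dividing fission yeast cells the complex contains the SMC proteins Psm1 and Psm3, the kleisin Rad21, and Psc3, the stromal antigen subunit measured here. Arm cohesin in yeasts is known to gather where transcription of neighbouring genes runs towards a common end, while at centromeres it is brought in through heterochromatin protein Swi6, which binds the histone mark made by the methyltransferase Clr4.

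The study measured Psc3 by chromatin immunoprecipitation on 2-colour arrays, with 1 array for each of 3 groups. All titles name a GFP-tagged Psc3, and an antibody against GFP was used throughout. The wild-type strain, grown in rich medium at 30 °C, had the mating-type allele mat1Msmto, the markers leu1-32 and ade6-216 and the tagged gene Psc3-GFP::kanMX. For the second strain, grown in the same way, the genotype label gives clr4d alone. The third label gives cdc10-v50 alone, a mutant of the transcription factor subunit Cdc10 that is needed to leave G1. These cells were first grown at 26 °C and then held at 35 °C for 4 hours, to arrest them in G1. Fixation was the same in the 3 cultures, 30 min in paraformaldehyde at 18 °C and then 45 min in dimethyl adipimidate. No array of an untagged strain was used here. Input signal was more than 20-fold lower than in wild type over 3 or more neighbouring tiles in 1 place of the clr4d array, chr2:457501-459000, and nowhere on the cdc10-v50 array. Its median there was 1689 for wild type, 7.51 for clr4d and 1676 for cdc10-v50. The reference assembly ASM294v3 places clr4 at chr2:453996-458410, on a chromosome where array and reference positions are not the same, so DNA was missing near clr4 on the array labelled clr4d and on no other.

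Each group has 1 array, so the values below carry no error between cultures and no test was made between groups. Errors given are standard deviations (SD) between tiles or between sites of 1 array. Ratios are centred on each array, so a change of Psc3 that is equal over the whole genome cannot be seen. The wild-type array was read with another version of the scanner software than both mutant arrays and with a lower saturation level of the ChIP channel, 65526 against 777470 and 777453. Genotype and scanner settings therefore cannot be told apart in any comparison with wild type. The cdc10-v50 array, whose header marks its quality for evaluation, also differs from the others in temperature and cell cycle stage.

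Coordinates of sites are the array's own tile positions, for which the sources used here give no genome build. Only between 100 and 1000 kb of chromosome III, on its left arm, did the base composition of the reference sequence (RefSeq, ASM294v3) follow the input signal at the printed positions, with best shifts between -140 and 40 bp in 9 stretches of 100 kb. In 105 such stretches of the other arms the best shift lay between -2000 and 4540 bp, and in 0 of them within 150 bp of no shift. Genes are therefore named only there, where 11 of the 159 sites lie. For pairs of genes that run towards each other, the midpoint between the gene ends was used. At 9 of these 11 sites it lies inside the site (5 sites) or within 500 bp of it. The same count was 4 for genes in tandem and 1 for diverging genes. The stretch has 92 converging, 163 tandem and 92 diverging boundaries between genes. How often other windows of the same length hold a boundary was not counted. By tile, 50.8% of member tiles and 20.7% of all tiles there lay within 1 kb of a boundary between converging genes. The reference sequences between the annotated ends of 3 such pairs are shown because these sites sit on or beside a short stretch that belongs to neither gene. The stretches are chr3:135561-135723 between btb1 and sdh3, chr3:357774-357952 between duc1 and SPCC594.02C, and chr3:623223-623515 between msy1 and mug73, all on the plus strand of ASM294v3.
btb1/sdh3: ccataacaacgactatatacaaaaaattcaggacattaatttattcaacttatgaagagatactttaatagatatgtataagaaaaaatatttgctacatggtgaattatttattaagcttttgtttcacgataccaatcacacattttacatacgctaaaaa
duc1/SPCC594.02C: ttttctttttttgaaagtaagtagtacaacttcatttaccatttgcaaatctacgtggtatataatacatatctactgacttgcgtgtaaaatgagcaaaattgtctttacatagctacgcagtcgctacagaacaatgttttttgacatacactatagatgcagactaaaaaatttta
msy1/mug73: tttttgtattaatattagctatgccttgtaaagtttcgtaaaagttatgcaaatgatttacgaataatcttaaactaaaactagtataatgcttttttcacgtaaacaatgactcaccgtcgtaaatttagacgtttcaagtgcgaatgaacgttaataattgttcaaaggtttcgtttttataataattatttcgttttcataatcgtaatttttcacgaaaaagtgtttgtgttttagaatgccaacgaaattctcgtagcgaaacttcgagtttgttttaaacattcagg

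These stretches are 163, 179 and 293 bp long and hold 25.2%, 30.2% and 28.7% G and C. The median over the 12 gaps of 100 to 300 bp between converging genes on the same arm was 29.3%, with a range from 25.2% to 34.9%. The 3 gaps are among these 12, and that of btb1 and sdh3 is the lowest of them.

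The sites were narrow and spread over all 3 chromosomes. Their median length was 1.5 kb (SD 1.29, n = 159 sites, range 0.3 to 6), and together they covered 285 kb. Chromosome I held 79 sites, chromosome II 56 and chromosome III 24, or 1.54, 1.39 and 1.21 sites per 100 kb of arm tiles. The median distance from a site to the next on its chromosome was 52.95 kb, with quartiles at 19.6 and 95.7 kb. Spacing was uneven. Of 156 distances, 21 were under 10 kb and 38 were over 100 kb. The longest stretch of arm between neighbouring sites with no excluded interval in it was 322.8 kb, at chr1:3215401-3538200, and the longest on chromosome II was 255.3 kb, at chr2:553201-808500.

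On each array the shared sites had a greater median height and length than the other sites found there. The threshold was passed by 6.11% of arm tiles of wild type, 6.99% of clr4d and 5.18% of cdc10-v50, and by 2.51% on all 3 arrays. Wild type had 287 arm sites of its own, and 152 of them (53.0%) held a member. In clr4d 153 of 444 own sites (34.5%) held one, and in cdc10-v50 155 of 309 (50.2%). Own sites that held a member had a median height of 1.47 in wild type against 1.12 for the others, 1.59 against 1.18 in clr4d, and 1.46 against 1.14 in cdc10-v50. Their median lengths were 3.6, 3.3 and 2.4 kb, against 0.9 kb for the others on each of the 3 arrays. The rule used these same values, so this describes the choice and is no support for it.

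Around the site centres, Psc3 rose and fell with similar shape in the 3 arrays. The rule chose and placed the sites by ratios on all 3 arrays, so the shared peak is largely its product. The median single-tile ratio at the centre was 1.37 for wild type, 1.42 for clr4d and 1.37 for cdc10-v50. At 3 kb to the left it was 0.62, 0.55 and 0.37, and at 3 kb to the right 0.49, 0.52 and 0.27. At 6 kb the medians lay between -0.04 and 0.09 on both sides. The flanks were highest in wild type and lowest in cdc10-v50 at 2.1 kb, where the medians were 0.86, 0.77 and 0.65 to the left and 0.84, 0.73 and 0.58 to the right. The run of tiles at or above 1 around a site had a median width of 3.3 kb in wild type (SD 1.89) and of 2.4 kb in both clr4d (SD 1.77) and cdc10-v50 (SD 1.39). It was widest in wild type alone at 80 of the 159 sites, in clr4d alone at 40 and in cdc10-v50 alone at 26, and arrays shared the widest run at 13.

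**Figure D1:**
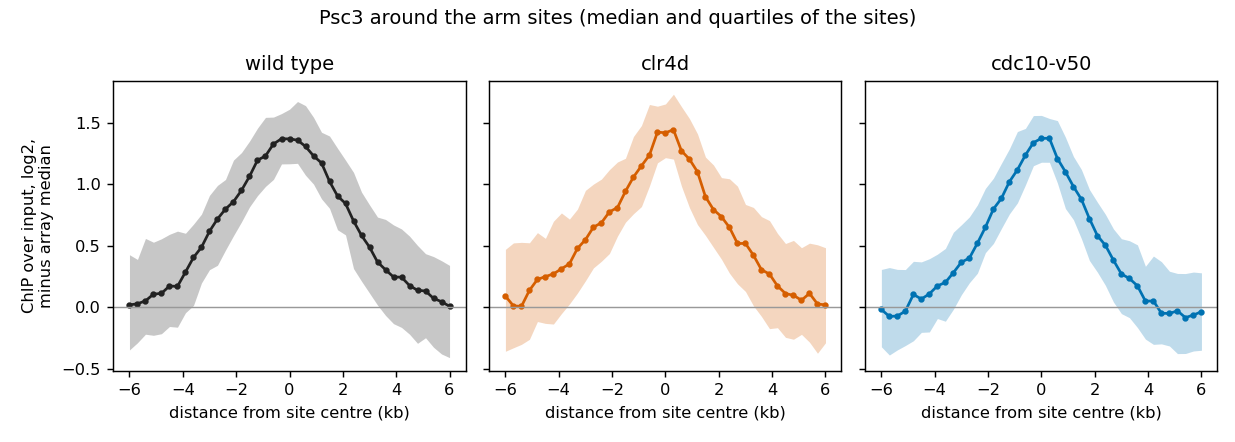
Median log2 ChIP over input, minus the array median (vertical axis), against distance from the site centre in kb (horizontal axis), with 1 panel per array; points are medians over the sites with a tile at that distance and the band spans the quartiles. The medians reach 1.37, 1.42 and 1.37 at the centre and lie between -0.04 and 0.09 at 6 kb.

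The highest smoothed ratio of a site, called its height here, had a median of 1.43 in wild type (SD 0.31 over 159 sites, range 1.00 to 2.33). In clr4d it was 1.54 (SD 0.37, range 1.00 to 2.72) and in cdc10-v50 1.41 (SD 0.29, range 1.00 to 2.27). The largest cdc10-v50 height was at chr1:324601-325200, where the site's own 2 tiles had a mean of only 1.18. A tile outside that site raised its smoothed ratio. Wild type was highest at 41 sites, clr4d at 75 and cdc10-v50 at 43, and the same arrays were lowest at 65, 38 and 56. At sites with a tile saturated in wild type that height is a lower bound. Among the 72 sites without such a tile the arrays were highest at 17, 38 and 17 and lowest at 31, 12 and 29. Across the 159 sites heights correlated between arrays with Pearson's r of 0.54 for clr4d and wild type, 0.55 for cdc10-v50 and wild type, and 0.51 for both mutants. These are descriptions of sites that share an array each, and the threshold that chose them cuts off the low end of every array.

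Height and length of a site were linked, as both come from the smoothed values that the rule used and a maximum over more tiles tends to be higher. Their correlation was an r of 0.67 for wild type, 0.68 for clr4d and 0.68 for cdc10-v50, over 159 sites. The 39 sites of 1 or 2 tiles had median heights of 1.12, 1.17 and 1.21 in wild type, clr4d and cdc10-v50. The 87 sites of 3 to 9 tiles had 1.45, 1.57 and 1.43. The 33 sites of 10 or more tiles had 1.85, 1.91 and 1.76, and the lowest height among these long sites on any array was 1.28. Heights by chromosome differed little in wild type, with medians of 1.43 on I, 1.48 on II and 1.41 on III. In clr4d they were 1.59, 1.47 and 1.74, and in cdc10-v50 1.40, 1.44 and 1.44, with SDs between sites from 0.27 to 0.39 over the 3 arrays.

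Summits of a site often lay on neighbouring tiles but seldom on the same tile of all arrays. The tile with the highest smoothed ratio lay within 300 bp, the distance between neighbouring tiles, at 103 of 159 sites for clr4d and wild type, 103 for cdc10-v50 and wild type, and 122 for the mutants. Short sites leave little room for a shift. Among the 120 sites of at least 3 tiles the counts were 64, 64 and 83, and the summits fell on the same tile at 18, 22 and 39. All 3 summits lay within 300 bp of each other at 40 of these 120 sites and on 1 tile at 8. The median distance between summits was 300 bp for each pair of arrays, and the largest was 2700 bp.

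At the sites the ChIP channel was well above its arm median and the input channel differed from its own by less. The rule asked for a high ratio of ChIP to input, so this describes the choice and is no support for it. Over the member tiles the ChIP signal was above its arm median by a median of 1.42 for wild type, 1.54 for clr4d and 1.52 for cdc10-v50 on the log2 scale. The input signal differed from its arm median by -0.16, 0.06 and 0.10. At the member tiles not saturated in wild type the ChIP signal was above by 1.21, 1.28 and 1.31 and the input differed by -0.32, -0.20 and -0.07. In wild type 36.7% of member tiles had input above the arm median, in clr4d 53.9% and in cdc10-v50 54.8%. Missing spots counted as not above in these shares. On the cdc10-v50 array 35 of the 930 member tiles were flagged as non-uniform spots and were treated as missing, which leaves 895 there.

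Part of the wild-type ChIP signal was cut off by the scanner. In wild type 265 of 930 member tiles (28.5%) were saturated in the ChIP channel, against 2.75% of all arm tiles, and none was saturated in either mutant. At the 87 sites that hold such a tile the wild-type value is a lower bound. The other 72 sites have no saturated tile. The site mean, which is the mean of the single-tile ratios of a site, differed between clr4d and wild type by a median of 0.06 at those 72 sites and 0.00 at the 87. For cdc10-v50 and wild type the medians were 0.00 and -0.00.

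Few sites differed much between arrays. The site mean in clr4d minus that in wild type had a median of 0.04 (SD 0.30, range -0.85 to 0.88), with 90 of 159 sites higher in clr4d. For cdc10-v50 minus wild type it was -0.00 (SD 0.26, range -0.61 to 0.63), with 79 sites higher in cdc10-v50. For cdc10-v50 minus clr4d it was -0.07 (SD 0.28, range -0.87 to 0.85), with 69 higher in cdc10-v50. Under other settings the median took either sign for both comparisons with wild type, from -0.13 to 0.15 for clr4d and from -0.28 to 0.03 for cdc10-v50. No site mean differed 2-fold in any of these comparisons, and 143, 146 and 141 sites in that order differed by 0.5 or less on the log2 scale. That count of 0 depends on the processing, with 8, 7 and 1 sites at least 2-fold apart after normexp background correction and 2, 3 and 6 without smoothing. Membership requires a ratio of 1 or more on each array, so sites that sank lower on any array are not among the 159, and the narrow range is in part the rule's own.

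Member tiles that differed 2-fold were correspondingly few. Of the 930 member tiles, 6 were at least 2-fold higher in clr4d than in wild type by smoothed ratio, where 3.11% of all arm tiles were, and 0 were as much lower, where 1.22% of arm tiles were. For cdc10-v50 and wild type 0 were higher and 0 lower, with 0.35% and 0.517% among all arm tiles. Against clr4d, 3 member tiles were 2-fold higher in cdc10-v50 and 4 were lower, with 0.261% and 1.1% among all arm tiles. The choice of members used these values, so nothing is read from the contrast with all arm tiles. Comparisons with wild type share the wild-type array.

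**Figure D2:**
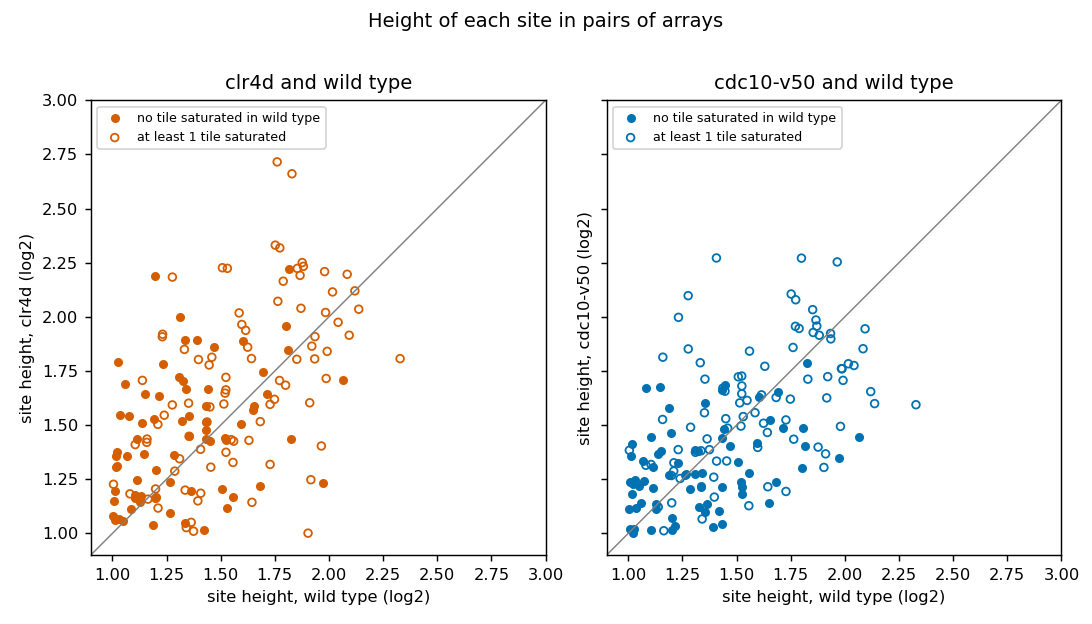
Height of each of the 159 sites (highest smoothed log2 ChIP over input) in clr4d (left panel) and cdc10-v50 (right panel) on the vertical axis against wild type on the horizontal axis; the line marks equal heights, and open circles are the 87 sites with a tile saturated in wild type. Points spread on both sides of the line, and the 2 sites that stand highest in clr4d, at 2.72 and 2.66, lie far above it.

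The 10 sites with the highest lowest height over the 3 arrays are those where Psc3 was dense in every strain. The first was chr2:3948601-3953700, a site of 17 tiles with heights of 2.09 for wild type, 1.92 for clr4d and 1.94 for cdc10-v50. The mean of its tiles was 1.75 ± 0.24, 1.53 ± 0.30 and 1.65 ± 0.22 (SD between tiles), with 6 tiles saturated in wild type. The second, chr2:4112401-4116000, had heights of 1.94, 1.91 and 1.90 in the same order, nearly level. At chr1:854101-858000 they were 1.88, 2.23 and 1.91, with clr4d above the other two. The other 7 had lowest heights between 1.79 and 1.87. They lie at chr1:2730301-2735100, chr1:3864901-3867000, chr1:4028401-4031700, chr1:5425201-5429100, chr2:808501-811800, chr3:1569301-1573500 and at efr3 on chromosome III, described further on. All 10 were between 2.1 and 5.1 kb long. In wild type each held at least 3 saturated tiles.

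The longest site was chr2:4320001-4326000, with 19 member tiles over 6 kb and heights of 1.51 for wild type, 2.23 for clr4d and 1.72 for cdc10-v50. At chr2:912001-916800, 4.8 kb long, the heights were 1.75, 2.33 and 2.11. At both, clr4d was highest and wild type lowest, with 1 tile of each site saturated in wild type. The other 3 of the 5 longest are chr2:3948601-3953700 and chr1:2730301-2735100, named above, and the site at pog1 and opy1.

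Differences from wild type reached further in clr4d than in cdc10-v50. The tallest site of any array was chr1:737401-740100, with heights of 1.76 for wild type, 2.72 for clr4d and 1.86 for cdc10-v50. Its 9 tiles were higher in clr4d than in wild type by 0.74 ± 0.68 (SD between tiles), and 5 of them were saturated in wild type. At chr2:2939101-2941500 heights were 1.83, 2.66 and 1.71, with clr4d again alone above the others. In wild type 2 tiles of this site were saturated. A smaller site without saturated tiles, chr1:4171201-4172100, had site means of 1.15, 1.88 and 1.22, and a difference of 0.73 ± 0.52 over 3 tiles. The largest difference, 0.88, was at the single tile chr1:2443801-2444100, with heights of 1.03, 1.79 and 1.02. The 12 tiles of chr1:2197801-2201400, of which 2 were saturated in wild type, were higher in clr4d by 0.64 ± 0.26. The single tile chr1:1549501-1549800 was higher by 0.65.

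Other sites were lowest in clr4d. At chr2:2170201-2173500, 11 tiles long, heights were 1.96 for wild type, 1.40 for clr4d and 2.25 for cdc10-v50. In wild type 9 tiles of this site were saturated, so its wild-type height is a lower bound. This site showed the largest excess of cdc10-v50 over clr4d, 0.85 ± 0.17 over the tiles measured on both arrays. It is close to the excluded interval that ends at 2.16 Mb of chromosome II. At chr2:3820501-3821700, with no saturated tile, heights were 1.97, 1.23 and 1.35, and the 4 tiles were lower in clr4d than in wild type by a mean of -0.69 ± 0.21. The nearest site to the right of the centromere interval of chromosome II, chr2:1740901-1743300, had 1.92, 1.25 and 1.63. The single tiles chr2:2192401-2192700 and chr1:1066501-1066800 completed the 5 lowest, with differences of -0.85 and -0.55.

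The 5 sites that stood furthest above wild type in cdc10-v50 were between 0.3 and 2.4 kb long. At chr2:139501-140100, a site of 2 tiles, heights were 1.08 for wild type, 1.11 for clr4d and 1.67 for cdc10-v50, so cdc10-v50 stood alone. The site means were 1.19, 1.64 and 1.73 at chr3:1915201-1917300 and 1.09, 1.33 and 1.58 at chr3:2169301-2171100. At both of these, clr4d also lay above wild type. In wild type 3 tiles of the first and 2 of the second were saturated, so these wild-type means are lower bounds. The tcb1 and bir1 site and the tile chr1:4107301-4107600 (1.02, 1.36 and 1.41) were the others. Below wild type, chr2:3482701-3485100 had 2.07, 1.71 and 1.45 with no saturated tile, and its 8 tiles differed by -0.61 ± 0.30. The tallest wild-type site, chr1:1917001-1919100, had 2.33, 1.81 and 1.59. At chr1:3965701-3969600 the heights were 1.88, 2.25 and 1.40, and the run above 1 was 10.5 kb wide in wild type, the widest of any site, against 7.5 and 3.9 kb. The sites chr1:5089501-5090400 and chr1:5269501-5274300 were lower in cdc10-v50 than in wild type by -0.56 and -0.55.

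Between the mutants, cdc10-v50 lay furthest below clr4d at msy1 and mug73, with -0.87, and at chr1:2443801-2444100, with -0.82. At chr1:932401-933900 heights were 1.34 for wild type, 1.89 for clr4d and 1.22 for cdc10-v50. Both other sites of the 5, chr2:2939101-2941500 and chr1:737401-740100, are the pair at which clr4d stood out above wild type. Above clr4d, besides 3 sites already named, were chr1:4564501-4566900 (1.56, 1.43 and 1.84) and the tile chr2:3321601-3321900 (1.37, 1.01 and 1.39).

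A fair number of sites lay close to the threshold. At 34 of 159 sites the lowest height was under 1.1. Of the member tiles, 252 had their lowest smoothed ratio between 1 and 1.1, and 390 other arm tiles had theirs between 0.9 and 1. The member tile nearest above the threshold was chr1:613501-613800 at 1.24, 1.17 and 1.00 in wild type, clr4d and cdc10-v50, and the tile nearest below was chr1:708901-709200 at 1.01, 1.08 and 1.00, where cdc10-v50 fell short by under 0.01. The 5 sites nearest above were all single tiles. They are chr2:2192401-2192700, chr1:1560901-1561200, chr3:2348101-2348400 and the sites at rpt4 and sec8 on chromosome III.

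On the left arm of chromosome III the 11 sites lay mostly where converging genes end. This stretch holds 2859 arm tiles, 65 of them members, and 353 protein-coding genes, of which the sites overlap 16. Of the member tiles, 45 (69.2%) had as their nearest boundary between neighbouring genes one where the genes converge, against 25.6% of all tiles there. A boundary between divergent genes was nearest for 3.08% against 28.3%, and one between genes in the same direction for 27.7% against 46.1%. The median distance to a converging boundary was 0.968 kb for member tiles and 2.53 kb for all tiles, and to a diverging one 5.42 and 2.57 kb. Tiles of 1 site are neighbours and not independent, so these are descriptions of 11 sites.

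Member tiles were seldom near gene starts and more often near gene ends. Within 500 bp of the start of a gene lay 15.4% of member tiles against 36.2% of all tiles, and within 500 bp of the end of a gene 40% against 31.6%. Member tiles were a median of 1466 bp from the nearest gene start, and all tiles 719 bp. Of the 59 member tiles inside exactly 1 gene, 67.8% lay nearer its 3′ than its 5′ end, with a median position 65.1% of the way from start to end, against 48.7% and 48.8% for the 2095 such tiles of the whole stretch. Most member tiles were inside genes rather than between them. With untranslated ends counted as gene, 61 of 65 (93.8%) lay in a gene, against 76.7% of all tiles, and none lay in a gap between converging genes, which hold only 1.36% of all tiles. Bounded by coding sequence alone, 15.4% of member tiles lay between converging genes, against 6.65% of all tiles.

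**Figure D3:**
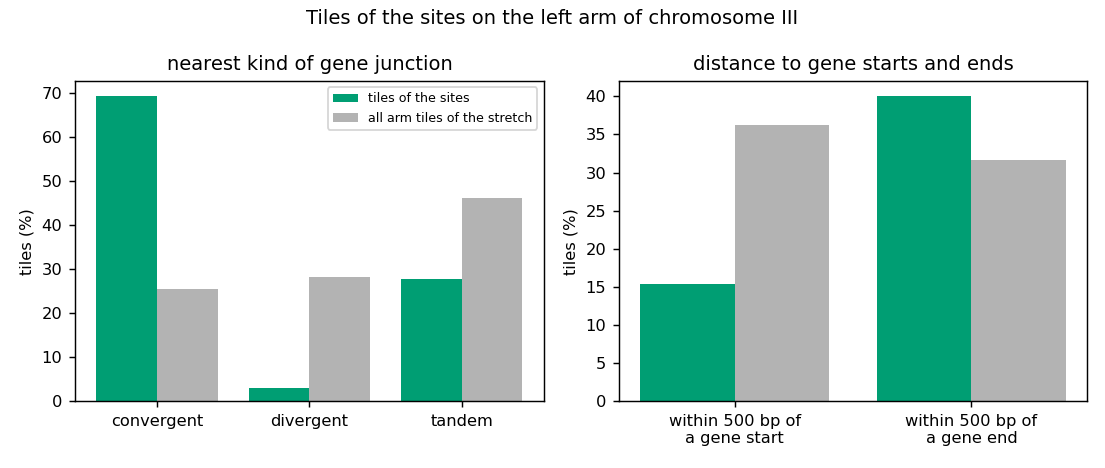
Left panel, percent of the 65 member tiles (green) and of all 2859 arm tiles (grey) of the left arm of chromosome III whose nearest boundary between genes is convergent, divergent or tandem; right panel, percent of the same tiles within 500 bp of a gene start or a gene end. Member tiles reach 69.2% at convergent boundaries against 25.6% of all tiles.

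Most boundaries between converging genes carried no site. Of 92 such boundaries on the stretch 8 had a member tile centre within 500 bp, against 1 of 92 diverging and 3 of 163 tandem ones. The rule that chose members makes the ratio high at those 8, so nothing is read from their contrast with the rest. Their median ratio was 1.38 for wild type, 1.64 for clr4d and 1.71 for cdc10-v50. At the converging boundaries without a site it was 0.03, 0.35 and 0.33 (SD 0.53, 0.62 and 0.45). These still stood above the diverging boundaries, at -0.64, -0.27 and -0.42, and the tandem ones, at -0.33, -0.01 and -0.10, in each of the 3 arrays. Gaps between genes are poor in G and C, with a median of 31% for tiles between converging coding sequences, but the member tiles were not. Their median was 38%, that of all tiles 36.3%, and that of all tiles within the coding bounds of genes 39%. Most member tiles lay in genes, so their composition is near that of genes. Across the tiles of the stretch, base composition correlated with the smoothed ratio with r of 0.26 for wild type, -0.12 for clr4d and 0.06 for cdc10-v50, and with the log2 input signal with r of 0.54. Its part in the site pattern was not tested.

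The longest of the 11, chr3:941101-945900, spans pog1, annotated as a DNA polymerase, from start to end. It also covers the larger part of the converging gene opy1, and the genes overlap by 207 bp. Its heights were 2.04 for wild type, 1.97 for clr4d and 1.78 for cdc10-v50, with 10 tiles saturated in wild type. The tile nearest the boundary had single-tile ratios of 2.02, 2.24 and 1.86. To the left, over pog1, wild type stayed high while clr4d sank, and 1 tile there, at 1.80, 0.74 and 1.29, is no member because its smoothed ratio in clr4d was 0.997. To the right, past the site, clr4d was still at 1.68 at 2.93 kb from the boundary, where wild type was at 0.69 and cdc10-v50 at 0.72. The next gene to the left is tpi1, which makes the glycolytic enzyme triosephosphate isomerase.

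A second tall site, chr3:265501-267900, lies over nearly the whole length of efr3, whose budding yeast counterpart anchors a lipid kinase at the plasma membrane. It ends 80.5 bp before the boundary with tef101, a gene for translation elongation factor EF-1 alpha. Heights were 1.93, 1.81 and 1.92. The array has almost no tiles over tef101 itself, so how far Psc3 reached into that gene is not known, and at the first tile beyond it the ratios of all 3 arrays were below 0.

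At chr3:356101-359400, over duc1 and SPCC594.02C, heights were 2.02 for wild type, 2.11 for clr4d and 1.78 for cdc10-v50, and the gap printed for this pair lies inside the site. At chr3:545701-548100, over the end of tcb1, a tether of the endoplasmic reticulum to the plasma membrane, and the larger part of bir1, the survivin of the chromosomal passenger complex, they were 1.28, 1.59 and 2.10. Here cdc10-v50 stood 0.57 ± 0.32 above wild type (SD over 8 tiles, 2 of them saturated in wild type). These 2 sites thus show opposite orders of wild type and cdc10-v50.

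At chr3:135301-136800, over btb1, a ubiquitin ligase adaptor, and sdh3, a succinate dehydrogenase subunit, heights were 1.45, 1.43 and 1.68. It is the only one of the 11 that also holds a diverging boundary, that of sdh3 and the RNA polymerase III subunit gene rpc37. At chr3:466201-467700, over coq5, a methyltransferase of ubiquinone synthesis, and SPCC4G3.03, they were 1.23, 1.78 and 1.33, with clr4d highest. At chr3:623401-624300, where the ion channel gene msy1 meets mug73, the 3 member tiles had wild-type ratios of 1.33, 1.36 and 1.43. In clr4d they were 1.90, 1.86 and 1.91, and those of cdc10-v50 were 1.01, 1.05 and 1.01. The ratios of the 3 arrays did not overlap over these member tiles, with the order clr4d, wild type, cdc10-v50 at each. The order did not hold beside them. At -0.718 kb from the boundary wild type was highest, at 1.77 against 1.07 in clr4d and 0.79 in cdc10-v50. With 1 array per group and a site picked for its difference between the mutants, nothing is read from this separation.

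**Figure D4:**
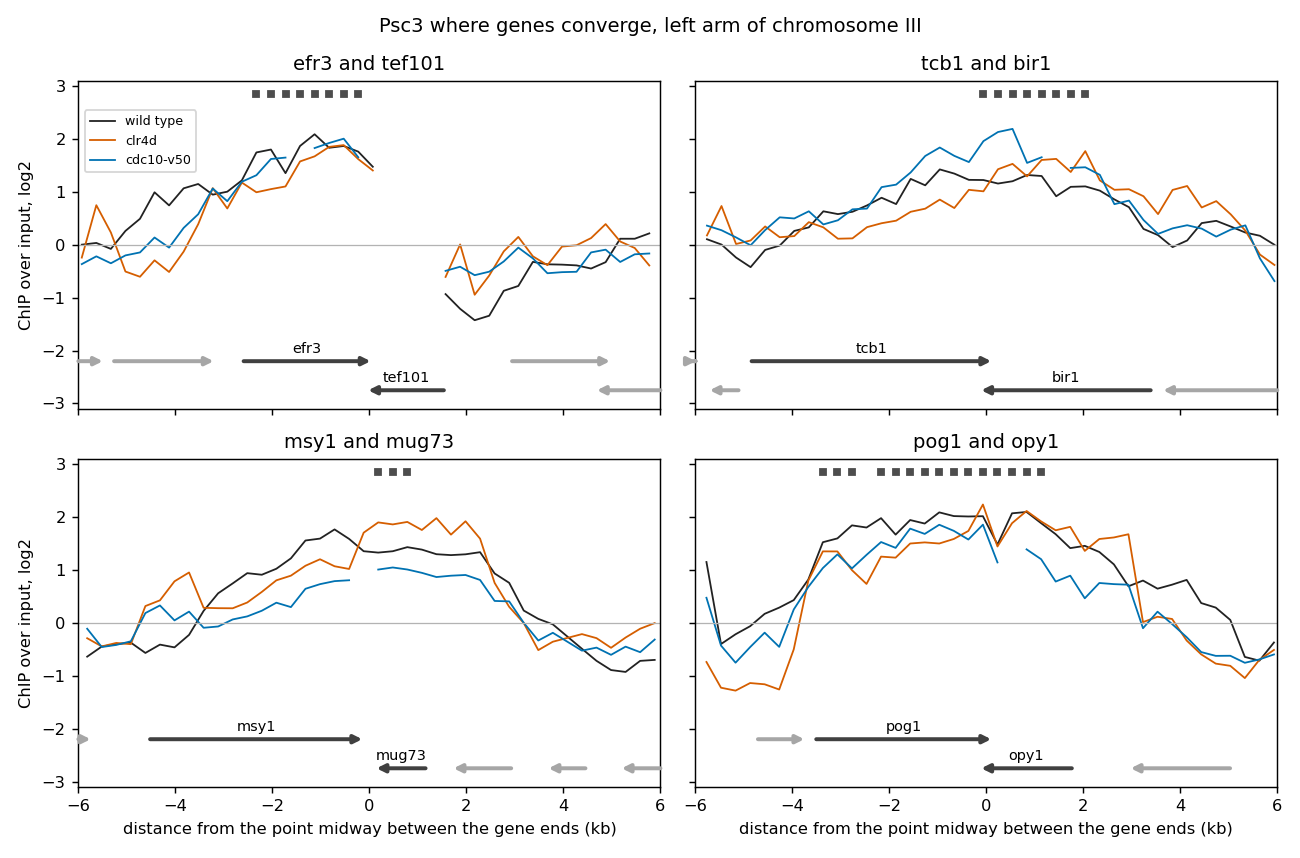
Single-tile log2 ChIP over input, minus the array median (vertical axis), against distance in kb from the point midway between the ends of 4 converging gene pairs, for wild type (black), clr4d (orange) and cdc10-v50 (blue); squares mark member tiles, arrows mark genes in their direction of transcription, and lines break where tiles are missing. At efr3 and tef101 the curves lie apart to the left and close together near the boundary, and at msy1 and mug73 they stay apart over the member tiles, near 1.90 in clr4d and near 1.01 in cdc10-v50.

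Near rpl1201, a ribosomal protein gene, and naa20, an acetyltransferase subunit gene, the site chr3:688801-690300 had heights of 1.80, 1.96 and 1.30. It ends 458 bp before that pair's boundary. Its neighbour chr3:686701-687600 lies 1.2 kb to the left, over pgl1, an enzyme of the pentose phosphate pathway, where it meets the kinase gene pef1 in tandem, and had 1.43, 1.59 and 1.21. Both were lowest in cdc10-v50. Of the 2 single-tile sites, chr3:407101-407400 lies in the proteasome gene rpt4, 196.5 bp from the boundary with yip3, at 1.02, 1.31 and 1.00. The other, chr3:493501-493800, lies inside the exocyst gene sec8, at 1.01, 1.15 and 1.24, and is 1909.5 bp from the nearest converging boundary. That boundary is the middle of a 3152 bp overlap of brl2 and sec8, so the annotated end of brl2 lies closer to the site.

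Several gene classes known for strong transcription are on the stretch. On the stretch, 0 of 10 tRNA genes lay within 1 kb of a site, 1 of 12 ribosomal protein genes (rpl1201), 1 of 2 translation elongation factor genes (tef101), the 1 gene of glycolysis (tpi1) and 0 of 1 histone gene. Of all 353 protein-coding genes, 27 (7.65%) did. No gene of the heat-shock, cohesin and Cdc10 target lists lies on this stretch. With 1 or 2 genes a list, these counts are descriptions only.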

How the data were processed

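Psc3 was measured by ChIP on 3 two-colour arrays, 1 per group. Per the labels' protocols, ChIP DNA was coupled to Cy5 and input DNA to Cy3, both after random-primed amplification, which can distort levels between sequences. Per the file headers, the scanner software was Agilent Feature Extraction, version 11.0.1.1 (wild-type array) or 11.5.1.1 (both mutant arrays). It subtracted background, removed spatial trends and normalized the dyes to give the processed intensity in the deposited files. The deposited files also give unnormalized median and local background intensity, log10 ratios of the red to the green channel, and flags. The authors' deposited value table holds log2 ratios. It equals minus the scanner log2 ratio on all 41551 genome probes of each array (tolerance 0.001), so its direction is input over ChIP. Its column medians are -0.17, 0.04 and 0.06, so it is not centred.

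Here log2 of red over green processed intensity was centred on each array's median over all genome probes. Control spots, 1727 probes marked f, m or r, and spots flagged as non-uniform (62, 9 and 1215 on the 3 arrays) were left out, and saturated spots were kept. Arm tiles exclude 3.70 to 3.84 Mb of chromosome I, 1.54 to 1.70 and 2.10 to 2.16 Mb of II, and 1.01 to 1.20 Mb of III. A tile covers 300 bp. The height of a site is its highest smoothed ratio and its mean is over single-tile ratios. A boundary between genes is the point midway between their annotated ends, protein-coding genes only. Named sites are the 10 with the highest lowest height, the 5 longest, the 5 with the largest difference each way in each pair of arrays, the 5 nearest above the threshold, and all on the left arm of chromosome III. The members, lists and rules were chosen with earlier results of these data known. No test between groups was made, with 1 array each. The number of arrays limits the precision. Tools were Python 3.11.15, numpy 2.4.6, pandas 2.3.3, and R 4.3.3 with limma 3.58.1 for normexp (offset 50) and loess (span 0.3), which were alternatives.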

Additional observations from a re-analysis of the deposited data

How the results depend on the processing

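Of 217 values recomputed under other settings, 193 stayed within the spread or within 1.5 times of the value given above, 24 moved, and none that was called reversed. The 193 include values from the authors' table, which holds the same ratios with the sign turned and could differ only by rounding. They also include those of a running mean limited to neighbours within 1 kb, which changed no value. The medians of clr4d minus wild type and cdc10-v50 minus wild type, both near 0, took either sign, that of cdc10-v50 minus clr4d did not (-0.17 to -0.03). No paired analysis was possible because each group has 1 array. With normexp background correction there were 265 sites and 1692 member tiles, the median height in wild type was 1.76, the median cdc10-v50 minus wild type was -0.28, and 8 sites were 2-fold apart between clr4d and wild type, 7 between cdc10-v50 and wild type and 1 between the mutants. With loess within arrays there were 567 member tiles, and with saturated spots left out 611. Under each of these and with centring on arm tiles, 1 site was 2-fold apart between clr4d and wild type and 1 between the mutants. Without smoothing, 2 sites were 2-fold apart between clr4d and wild type, 3 between cdc10-v50 and wild type and 6 between the mutants. A threshold of 0.8 gave 253 sites and 1746 member tiles, and one of 1.2 gave 91 and 480, with 81.8% of member tiles on the stretch of chromosome III nearest a converging boundary. The share of member tiles in gaps between converging genes was 15.4% with coding sequence bounds, chosen after seeing the data, as was a running mean limited to neighbours within 1 kb. Under the settings where it did not move, the number of sites lay between 120 and 195. The share of member tiles nearest a converging boundary lay between 64.1% and 70.6% where it did not move. The planned stretch from 50 to 1000 kb of chromosome III began at 100 kb, where the arm tiles begin. The causes were not tested. Saturation limits the wild-type values, and no depth applies to array intensities.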
